A study of Mus musculus with 8 samples.

Results

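The NRF2 and antioxidant defence genes examined here were Nfe2l2, Keap1, Hmox1, Gclc, Gclm, Txnrd1, Gsr, Prdx1, Cat and Gstp1. They were chosen by name, and every probe set whose array annotation gives one of these symbols as its only gene was taken. This gave 15 probe sets of 9 of the 10 genes, out of 12393 genes with such a probe set. Each probe set reads a stretch of a transcript with several short probes, and some genes have more than 1. The missing gene is Prdx1, a peroxiredoxin: the annotation lists its 5 probe sets with a second gene, so no value is given for it.

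The study used Affymetrix MOE430A arrays on flow-sorted splenic CD4 T cells of female mice, 8 to 12 weeks old. The 4 groups were Ahr knockout mice backcrossed to C57BL/6 (KO) given TCDD, KO given DMSO, wild type C57BL/6 mice (WT) given TCDD and WT given DMSO, with 2 arrays each. TCDD, the prototypical ligand of the aryl hydrocarbon receptor (AhR), was injected into the peritoneum at 10 µg/kg. All mice received corn oil as the carrier and were killed after 24 h, and each array held RNA pooled from 4 animals, so animals cannot be told apart within an array. The labels do not name the knockout allele. Values are log2 expression from RMA, a method that corrects background, normalises arrays and summarises each probe set.

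NRF2, the protein of Nfe2l2, is a transcription factor that KEAP1 holds in the cytoplasm and marks for degradation. Oxidants and electrophiles release it, and with small MAF proteins it binds antioxidant response elements in front of genes for glutathione synthesis, thioredoxin recycling, haem breakdown and conjugation of reactive compounds. The AhR binds another element, the xenobiotic response element, and some genes carry both. T cells draw on glutathione and thioredoxin when they are activated and divide.

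On the leading principal component, with 52.1% of the variance over all probe sets, the WT arrays numbered 2 stood apart (40.4 for TCDD and 49.2 for DMSO, against −36.2 to 9.10 on the other 6 arrays). On the same arrays the 3′ actin control exceeded the 5′ one by the least, 3.30 and 2.90, against 3.48 to 4.56 on the others; a larger gap goes with shorter RNA or copies of it. For WT TCDD 1 the title, source and strain say wild type but the description says knockout, and the array was analysed as WT. On the leading principal component it stood at −2.04, nearest to KO DMSO 1 at −5.20. The nearest WT array, WT DMSO 1, stood at 9.10. One Ahr probe set averaged 6.52 ± 0.23 in KO and 6.48 ± 0.14 in WT, and the other averaged 6.74 ± 0.26 in KO and 6.21 ± 0.10 in WT (adjusted p = 0.906 and 0.0658 by limma with BH adjustment), so neither was lower in KO. The sources used here do not say whether these probes lie in the deleted part, so they do not check the labels. In a probe set of each of 2 other genes, picked with their values known, WT TCDD 1 lay nearer to the other WT arrays than to any KO array. Both were called between KO and WT with this array counted as WT, so they are no independent check of its label. A probe set of Tiparp, an AhR target, read 7.35 on it, against 6.34 to 6.44 on the KO arrays and 7.42 to 7.73 on the other WT arrays. Cd68, a macrophage marker, read 5.16 on it, against 6.60 to 7.33 on the KO arrays and 4.98 to 5.30 on the other WT arrays. The brightest Tiparp probe set did not separate the genotypes. It read 9.63 on WT TCDD 1, 8.53 to 9.13 on the KO arrays and 8.43 to 9.43 on the other WT arrays. The sort was read from Cd4, which averaged 8.16 ± 0.09 in KO and 8.37 ± 0.28 in WT, and Cd3e, 9.36 ± 0.17 in KO and 9.53 ± 0.09 in WT (n = 4 each, SD). Of 7 CD4 T cell markers, 2 averaged higher in KO. The largest differences, KO minus WT, were 0.90 in Cd5 and −0.84 in Trat1 (limma, BH adjusted p = 0.0644 and 0.109). No read depth exists for arrays, and their number limits the precision.

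Among the antioxidant genes, Gstp1 was the only one whose level differed between KO and WT past the threshold, an adjusted p under 0.05 (limma, Benjamini-Hochberg adjustment over 22626 probe sets, BH). It was higher in KO by 0.37 on the log2 scale. Hmox1 also read higher on every KO array than on any WT array, and 1 of the Gclc probe sets read lower on every KO array, but neither passed. Nfe2l2 itself varied more between the arrays of WT than between genotypes. In all, 1 of 15 probe sets was called (2.79% of all probe sets were), 1 higher and 0 lower (1.59% and 1.2% of all). Of the 15, 4 had an unadjusted p under 0.05 (20.5% of all), and 2 lay wholly above and 1 wholly below WT (5.67% and 6.67% of all). Of the 15 differences, 10 were above 0, and their median was 0.02, against −0.01 over all probe sets. Of all 12393 genes, each read in its brightest probe set, 6285 were above 0.

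**Figure D1:**
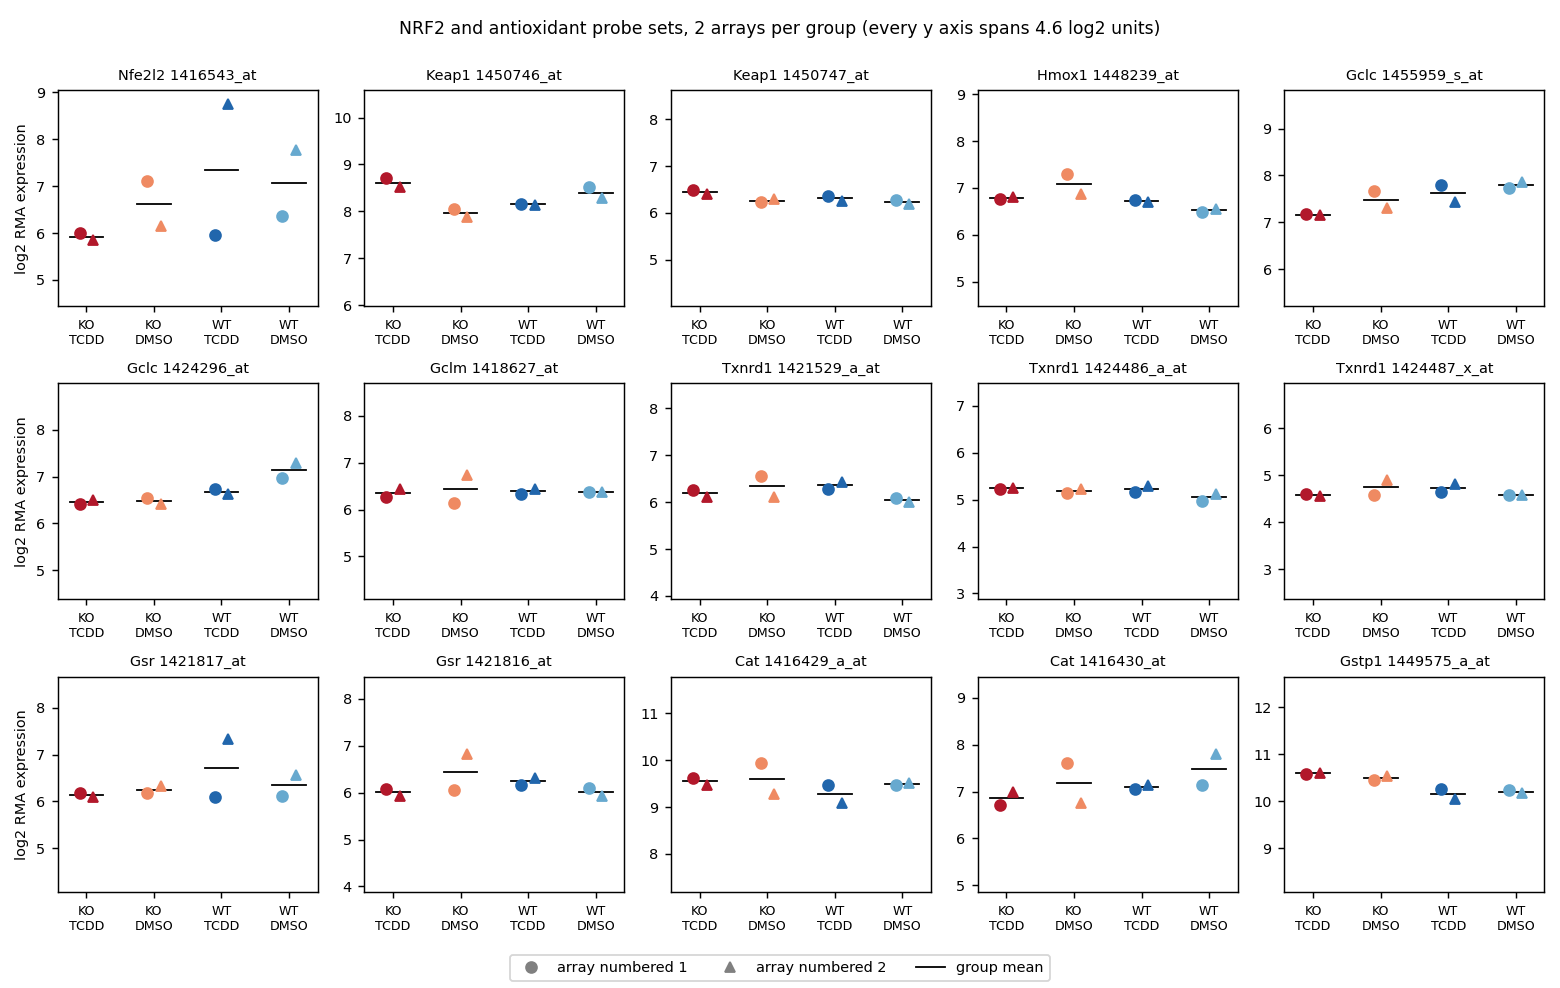
Log2 RMA expression (y axis) of the 15 probe sets on the 8 arrays, in the groups KO TCDD, KO DMSO, WT TCDD and WT DMSO (x axis). Circles are arrays numbered 1, triangles arrays numbered 2 and bars group means; every panel spans 4.6 log2 units, so spreads can be compared. Gstp1 lies higher in KO with little spread, and Nfe2l2 is highest on the WT arrays numbered 2, at 8.75 and 7.78.

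Gstp1 encodes a class pi glutathione S-transferase, a cytosolic enzyme that joins glutathione to electrophiles. Its promoter is shown because Gstp1 is the called member. The stretch runs from 250 bases before to 50 bases after the start of the gene, at chr19:4037863-4038162 on the minus strand of GRCm38.p6, from RefSeq. Capitals mark every match, on either strand, to TGACNNNGC or TGAGNNNGC, forms of the antioxidant response element core, and to GCGTG, the xenobiotic response element core.
Gstp1: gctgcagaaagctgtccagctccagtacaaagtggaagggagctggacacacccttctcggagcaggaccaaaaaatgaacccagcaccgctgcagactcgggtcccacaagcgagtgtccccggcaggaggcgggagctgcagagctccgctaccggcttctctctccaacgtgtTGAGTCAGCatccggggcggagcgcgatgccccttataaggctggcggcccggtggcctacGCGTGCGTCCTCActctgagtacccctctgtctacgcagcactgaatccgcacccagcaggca

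The first match, TGAGTCAGC, lies at −74 to −66 from the start of the gene. The second run of capitals holds GCGTG at −13 to −9 and, sharing a base with it, a TGAGNNNGC match on the other strand at −9 to −1. Of all 32851 promoter windows of this length in the table, 17.6% hold TGAGNNNGC, 12.4% hold TGACNNNGC, 27.8% hold either and 32.4% hold GCGTG. The Gclm window and 1 of the 3 Txnrd1 windows also hold both kinds of core, with 3 and 2 matches to GCGTG. A match is a description of letters and not of binding.

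The Gstp1 probe set read 10.59 and 10.60 on the KO TCDD arrays and 10.45 and 10.54 on the KO DMSO arrays, against 10.25 and 10.04 on the WT TCDD arrays and 10.23 and 10.17 on the WT DMSO arrays. All 4 KO arrays lay above all 4 WT arrays, and the spread within a genotype was small. The mean was 10.54 ± 0.07 in KO and 10.17 ± 0.09 in WT (n = 4 each, SD), a log2 difference of 0.37 (SE 0.08, 95% confidence interval 0.20 to 0.55; limma, BH adjusted p = 0.0442). The difference was above 0 in all 15 alternatives run for it, at 0.31 to 0.41, while its adjusted p ran from 0.0198 to 0.213 and passed in 4 of them (limma, BH). Outside these 15, Gstp1 was called with the actin covariate and with the mean of all probe sets per gene. No member was called in the model of 4 group means, with treatment as an additive term, or with DMSO or TCDD arrays only. Leaving out KO DMSO 1, KO DMSO 2, KO TCDD 1, KO TCDD 2, WT DMSO 1, WT DMSO 2 or WT TCDD 2 ended the call (adjusted p 0.0527, 0.0677, 0.131, 0.135, 0.0697, 0.108 and 0.103 in that order; limma, BH), and leaving out WT TCDD 1 did not (0.0491). Without both WT arrays numbered 2 the difference was 0.31 (limma, BH adjusted p = 0.213). Gstp1 has the close relatives Gstp2 and Gstp3 as its next neighbours on chromosome 19, and whether transcripts of Gstp2 add to this probe set was not tested.

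The genes whose probe sets followed Gstp1 most closely over the 8 arrays were Adgre5, an adhesion receptor of leukocytes also called CD97 (Pearson r = 0.985), Ube2c, a ubiquitin-conjugating enzyme of mitosis (r = 0.985), and Vipas39, a protein of vesicle trafficking (r = 0.984). These were picked as the highest correlations over all genes with n = 8 arrays, they share the arrays and the normalisation with Gstp1, and KO and WT arrays do not overlap in any of the 3. Adgre5 averaged 10.59 ± 0.25 in KO and 9.37 ± 0.34 in WT, and the log2 difference was 1.22 (limma, BH adjusted p = 0.0202). Ube2c averaged 5.95 ± 0.19 in KO and 5.12 ± 0.26 in WT, and Vipas39 averaged 9.53 ± 0.19 in KO and 8.90 ± 0.19 in WT (adjusted p = 0.0307 and 0.0427 by limma with BH).

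The transcription factor gene Nfe2l2 read 5.99 and 5.86 on the KO TCDD arrays and 7.10 and 6.15 on the KO DMSO arrays, against 5.95 and 8.75 on the WT TCDD arrays and 6.37 and 7.78 on the WT DMSO arrays. The 2 highest values are those of the WT arrays numbered 2, and the WT arrays numbered 1 lie within the KO range. The log2 difference was −0.94 (SE 0.59, 95% confidence interval −2.28 to 0.40; limma, BH adjusted p = 0.423), and its interval is the widest of the 15. Without both WT arrays numbered 2 it was 0.12 (limma, BH adjusted p = 0.923), and without WT TCDD 2 alone −0.42. Nfe2l2 was high where the actin end difference was small: the 3 arrays with differences of 3.48 or less (WT DMSO 2, WT TCDD 2 and KO DMSO 1) are the 3 with the highest Nfe2l2. With the actin difference as a covariate, Gstp1 was the only member called between KO and WT. Nfe2l2 was called neither with nor without this covariate, so the covariate fit says nothing on its relation to RNA integrity. The part of RNA integrity in the Nfe2l2 level itself was not tested.

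**Figure D2:**
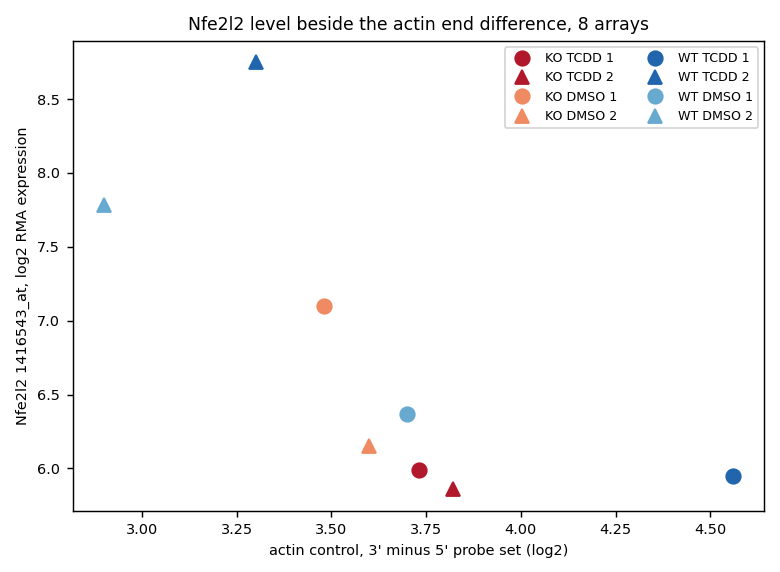
Log2 RMA expression of Nfe2l2 (y axis) against the log2 difference between the 3′ and 5′ actin control probe sets (x axis), 1 point for each of the 8 arrays. The WT arrays numbered 2 (blue triangles) lie at the upper left, with Nfe2l2 at 8.75 and 7.78 and actin differences of 3.30 and 2.90.

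Nfe2l2, Gclm, Txnrd1 and Prdx1 also have a match to an antioxidant element core in a RefSeq promoter window. The first 3, which have values here, are shown so that the Gstp1 match can be set beside those of other members. Capitals mark the match. The stretches lie on GRCm38.p6 at chr2:75704875-75704913 (minus strand), chr3:122245403-122245451 (plus strand) and chr10:82859094-82859142 (plus strand). The Gclm and Txnrd1 matches are on the opposite strand, so TGACGGTGC and TGACAAAGC appear as their reverse complements.
Nfe2l2: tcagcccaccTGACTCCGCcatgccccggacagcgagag
Gclm: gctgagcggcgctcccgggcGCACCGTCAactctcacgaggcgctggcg
Txnrd1: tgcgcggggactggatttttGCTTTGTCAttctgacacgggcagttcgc

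These matches lie at −240 to −232 in Nfe2l2, −134 to −126 in Gclm and −92 to −84 in one of 3 Txnrd1 windows. The Prdx1 window holds a TGACNNNGC match at −133 to −125 and a TGAGNNNGC match at 16 to 24, both on the opposite strand. The windows of Keap1 and Cat hold neither form of this core, which says only that the letters are not in the window; Keap1 holds GCGTG at −185 to −181 and at 6 to 10 after the start. The promoter table held 7 of the 10 genes, without Hmox1, Gclc and Gsr.

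Keap1, the adaptor that hands NRF2 to a ubiquitin ligase, did not pass in either of its probe sets. The brighter one read 8.71 and 8.52 on the KO TCDD arrays and 8.04 and 7.89 on the KO DMSO arrays, against 8.16 and 8.14 on the WT TCDD arrays and 8.51 and 8.28 on the WT DMSO arrays. The KO arrays thus split by treatment around the WT values. Their mean of 8.29 ± 0.39 in KO and 8.27 ± 0.17 in WT (n = 4 each, SD) differed by 0.02 (95% confidence interval −0.41 to 0.44; limma, BH adjusted p = 0.972). The dimmer one read 6.23 to 6.50 in KO and 6.20 to 6.36 in WT, and differed by 0.09 (adjusted p = 0.619, limma, BH).

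Gclc and Gclm encode the catalytic and the modifier subunit of glutamate cysteine ligase, which makes the first bond of glutathione. Gclc read lower in KO in both of its probe sets. The dimmer one read 6.41 and 6.50 on the KO TCDD arrays and 6.55 and 6.42 on the KO DMSO arrays, against 6.73 and 6.62 on the WT TCDD arrays and 6.97 and 7.30 on the WT DMSO arrays. Every KO array was below every WT array, with the nearest values 0.07 apart. The difference was −0.44 (SE 0.14) and was not called (limma, BH adjusted p = 0.131). The brighter one read 7.17 and 7.15 on the KO TCDD arrays and 7.67 and 7.30 on the KO DMSO arrays, against 7.79 and 7.44 on the WT TCDD arrays and 7.73 and 7.86 on the WT DMSO arrays; these groups overlap. Its difference of −0.38 (SE 0.14) did not pass either (limma, BH adjusted p = 0.166), nor did the mean of both probe sets, at −0.41 (limma, BH adjusted p over genes 0.0931). With array weights the dimmer probe set alone passed (adjusted p = 0.0437; 0.0437 to 0.273 over its 15 alternatives, limma, BH). Gclm averaged 6.40 ± 0.26 in KO and 6.39 ± 0.05 in WT (n = 4 each, SD), a difference of 0.01 with a 95% confidence interval of −0.27 to 0.30.

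Gsr, glutathione reductase, restores glutathione from its oxidised form. Its brighter probe set averaged 6.20 ± 0.10 in KO and 6.53 ± 0.58 in WT, where WT TCDD 2 stood at 7.34 and the other WT arrays at 6.10 to 6.57. Its dimmer probe set averaged 6.22 ± 0.40 in KO and 6.13 ± 0.15 in WT, with KO DMSO 2 at 6.82 (n = 4 each, SD). The differences, −0.33 and 0.09, have opposite signs and neither passed (limma, BH adjusted p = 0.517 and 0.840). Without WT TCDD 2 the difference of the brighter one was −0.063. Txnrd1, cytosolic thioredoxin reductase, read within 0.07 between genotypes in each of its 3 probe sets. Of these, the brightest averaged 6.26 ± 0.21 in KO and 6.20 ± 0.20 in WT (n = 4 each, SD), and the other 2 averaged 5.18 and 4.66 over all arrays, below the median probe set level of 6.13.

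Cat, catalase, breaks down hydrogen peroxide in peroxisomes. Its brighter probe set read 9.62 and 9.48 on the KO TCDD arrays and 9.94 and 9.27 on the KO DMSO arrays, against 9.48 and 9.09 on the WT TCDD arrays and 9.48 and 9.51 on the WT DMSO arrays. The groups overlap, and the difference was 0.19 (SE 0.16; limma, BH adjusted p = 0.558). It was 0.067 without KO DMSO 1, 0.087 without WT TCDD 2 and 0.29 without KO DMSO 2. Its dimmer probe set differed in the opposite direction, by −0.27 (SE 0.23; limma, BH adjusted p = 0.571), with its highest WT value of 7.81 on WT DMSO 2. Without that array it was −0.099, without KO TCDD 1 −0.17 and without KO DMSO 1 −0.47.

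Hmox1, the inducible haem oxygenase, opens the haem ring and is at its highest in macrophages that clear red cells. Its probe set read 6.77 and 6.81 on the KO TCDD arrays and 7.29 and 6.88 on the KO DMSO arrays, against 6.75 and 6.71 on the WT TCDD arrays and 6.49 and 6.56 on the WT DMSO arrays. The groups do not overlap, but the lowest KO and the highest WT value are 0.02 apart, both after TCDD. The mean was 6.94 ± 0.24 in KO and 6.63 ± 0.12 in WT (n = 4 each, SD), a difference of 0.31 (SE 0.13) that did not pass (limma, BH adjusted p = 0.211). Without KO DMSO 1, the highest array, it was 0.19.

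**Figure D3:**
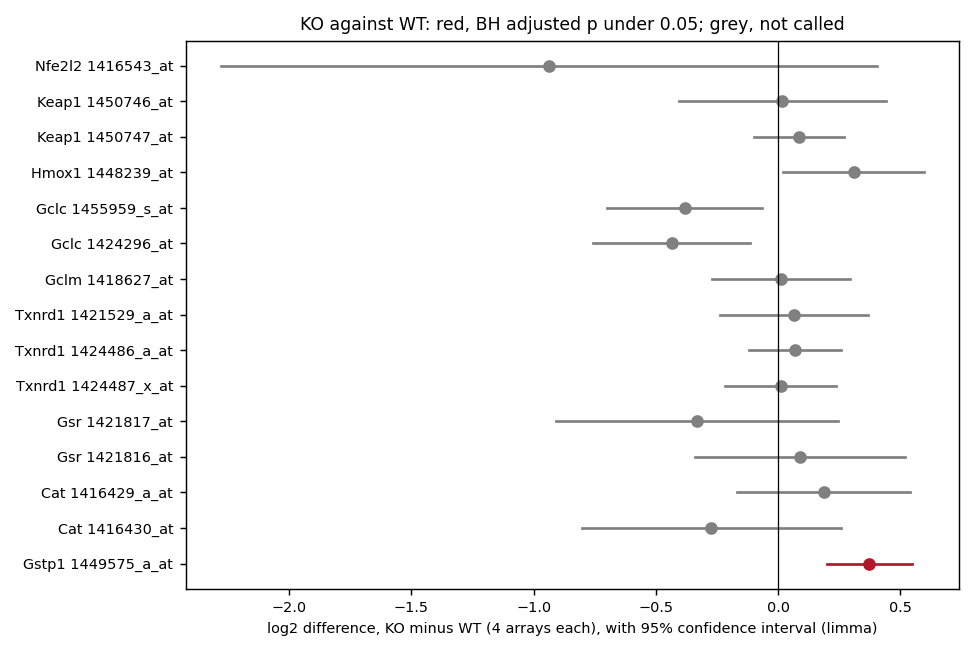
Log2 difference KO minus WT (x axis) for the 15 probe sets, with 95% confidence intervals from limma over 4 arrays each. Gstp1, in red, is the called one, at 0.37; the Hmox1 and both Gclc intervals also lie to one side of 0, and the Nfe2l2 interval is the widest, from −2.28 to 0.40.

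Markers of other cells moved with genotype beside these results. Of 13 macrophage and monocyte markers, 5 were called higher in KO (Mpeg1, Csf1r, Cd68, C1qb and C1qc) and 0 lower, where 2.32% of all genes had a probe set called higher, and the sum of their levels on the linear scale ran from 2560 to 3520 in KO and from 1210 to 1521 in WT. A linear sum weighs the brightest genes most, here Csf1r (9.82 in KO and 8.55 in WT) and Mpeg1 (9.78 in KO and 7.51 in WT). Spic, Cd163, Fcgr3, Vcam1, Lyz2, Adgre1, Cd14 and C1qa of that list did not pass. Over all arrays Spic, Cd163, Fcgr3, Cd68 and C1qc averaged below the median probe set level. Of 10 dendritic cell markers 8 were called higher, with sums of 3394 to 6707 in KO and 962 to 1515 in WT. Of 7 red cell markers 0 were called (sums 508 to 724 in KO and 454 to 567 in WT), of 7 B cell markers 0 (498 to 717 in KO and 422 to 589 in WT), of 8 markers of NK or CD8 T cells 1, namely Nkg7 (1043 to 1703 in KO and 801 to 1227 in WT), and of 7 CD4 T cell markers 0 (4854 to 5596 in KO and 4566 to 6556 in WT). Hmox1 is expressed by macrophages, and Gstp1 by many cell types; the part of these other cells in the readings was not tested. In sorted bulk RNA, a change in the number of cells of a type and a change of RNA per cell cannot be told apart.

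The wider pathway was read from 6 gene lists that exclude the members. Of all 12393 genes, 4.17% had a called probe set, 2.32% a higher and 1.86% a lower one. Of 12 measured partners and regulators of NRF2, 0 rose and 1 fell. This was Bach1, a repressor that competes with NRF2 for its elements and silences Hmox1. The brighter of its 2 probe sets read 6.71 and 7.40 on the KO TCDD arrays and 7.23 and 6.76 on the KO DMSO arrays, against 7.79 and 8.36 on the WT TCDD arrays and 7.92 and 8.58 on the WT DMSO arrays. It fell by 1.14 in KO (SE 0.22; limma, BH adjusted p = 0.0381), while its dimmer probe set, at 4.74 in KO and 4.71 in WT, differed by 0.02. The WT arrays numbered 2 were the highest, and without both the difference was −0.83 (limma, BH adjusted p = 0.178). The call was also lost without KO DMSO 2, KO TCDD 1, KO TCDD 2, WT DMSO 1, WT DMSO 2 or WT TCDD 2 (adjusted p 0.0530 to 0.107, limma, BH). The related repressor Bach2 read −1.15 and was not called (limma, BH adjusted p = 0.0649), and Cul3, the scaffold of the KEAP1 ligase, read −0.80, −0.44 and −0.21 in 3 probe sets, none past the threshold. Bach2 read 9.67 and 10.05 on the WT arrays numbered 2, against 9.02 and 8.96 on those numbered 1. The brightest Cul3 probe set read 9.35 and 9.29, against 8.64 and 8.58, with KO up to 8.63. The partners Maff and Mafk split by array number in WT the other way. Maff read 5.84 and 6.04 on arrays numbered 2, against 9.14 and 8.92, and Mafk 8.28 and 7.98, against 9.76 and 9.25. Over the list 3 of 12 genes were above 0, with a median of −0.15. Over all genes 6285 of 12393 were, with a median of 0.01. The list was not read again without the WT arrays numbered 2.

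Of 19 measured further NRF2 target genes, 1 rose and 0 fell. Tkt, the transketolase of the pentose phosphate pathway, rose in both of its probe sets. The dimmer one averaged 8.06 ± 0.12 in KO and 7.48 ± 0.08 in WT, and the brighter one averaged 10.64 ± 0.13 in KO and 10.13 ± 0.15 in WT (n = 4 each, SD). The differences were 0.58 and 0.50 (limma, BH adjusted p = 0.0173 and 0.0405). The call of the dimmer one was lost without KO TCDD 1, KO TCDD 2 or WT DMSO 2 (adjusted p 0.0527 to 0.0645), and that of the brighter one without any array but KO DMSO 2 (0.0549 to 0.120; limma, BH). Without both WT arrays numbered 2 neither passed (0.117 and 0.156). Taldo1, the next enzyme of that pathway, read 0.85 higher and was not called (limma, BH adjusted p = 0.106). Nqo1, a quinone reductase that answers to NRF2 and to the AhR, averaged 4.86 ± 0.10 in KO and 4.97 ± 0.13 in WT (n = 4 each, SD), and Slc7a11, the cystine importer, averaged 4.70 in either genotype; both lie below the median probe set level. The list's median was 0.01.

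Of 19 measured genes of glutathione synthesis and use, 0 were called. Above 0 were 15 of them, with a median of 0.11, against 6285 of 12393 and 0.01 over all genes. Genes read on the same arrays are not independent. Of 15 genes of thioredoxin, peroxiredoxin and superoxide dismutase, Txn2, mitochondrial thioredoxin, rose in the dimmest of its 3 probe sets, which averaged 8.05 ± 0.19 in KO and 7.45 ± 0.20 in WT (mean ± SD, n = 4 each; difference 0.60, limma, BH adjusted p = 0.0483). Its other 2 probe sets read 0.35 and 0.11 higher and did not pass, and the call was lost without KO DMSO 1, KO TCDD 1, KO TCDD 2, WT DMSO 2, WT TCDD 1 or WT TCDD 2 (adjusted p 0.0683 to 0.143, limma, BH) and without both WT arrays numbered 2 (0.241). The list's median was −0.05.

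Of 10 haem and iron genes, Hmox2, the constitutive haem oxygenase, rose. Its called probe set read 8.88 and 8.86 on the KO TCDD arrays and 8.89 and 8.72 on the KO DMSO arrays, against 8.41 and 8.36 on the WT TCDD arrays and 8.36 and 8.48 on the WT DMSO arrays. The groups are 0.24 apart at their nearest, and the difference was 0.43 (SE 0.07; limma, BH adjusted p = 0.0262). It stayed between 0.42 and 0.50 in 15 alternatives, and the call was lost without KO TCDD 1, KO TCDD 2, WT DMSO 1, WT DMSO 2 or WT TCDD 2 (adjusted p 0.0535 to 0.0922, limma, BH) and without both WT arrays numbered 2 (0.130). Of 5 measured genes of the AhR battery, Tiparp fell in 2 of its 3 probe sets (−1.15 and −0.46). It is a direct AhR target and belongs to the poly-ADP-ribose polymerase family. The first probe set was called in all 15 alternatives. The second lost its call without any array but KO TCDD 1 (adjusted p 0.0620 to 0.131, limma, BH) and without both WT arrays numbered 2 (0.167).

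**Figure D4:**
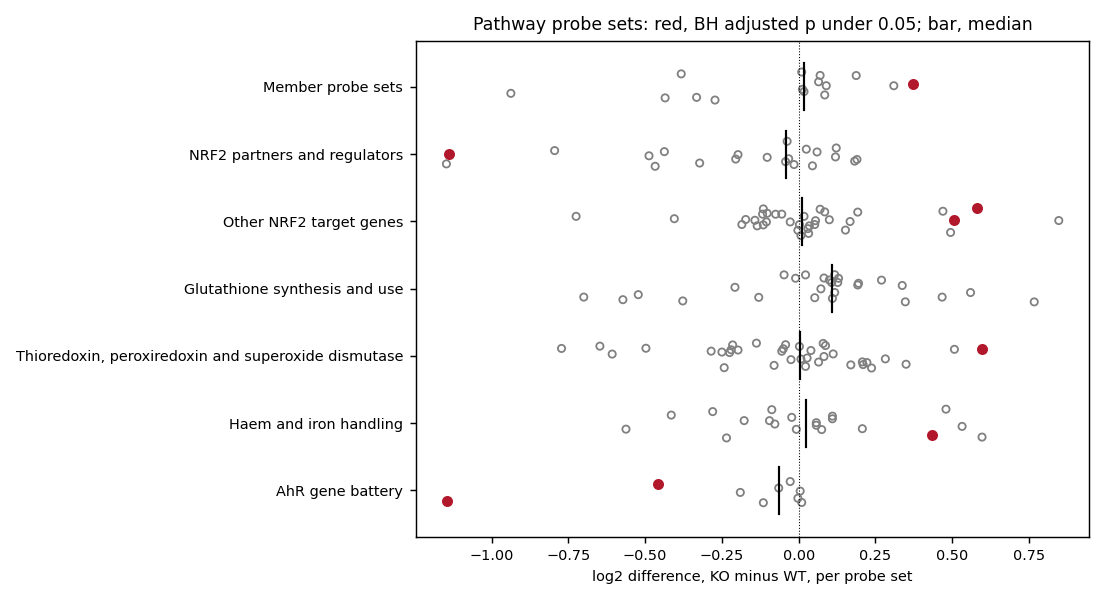
Log2 difference KO minus WT (x axis) for the member probe sets and for all probe sets of 6 pathway lists (rows); red points passed a BH adjusted p of 0.05, open points did not, and bars are medians over probe sets. Each row centres near 0, with medians from −0.07 to 0.11, and the red points are Gstp1, Bach1, Tkt, Txn2, Hmox2 and Tiparp.

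TCDD, the AhR ligand, gave no called change in any member in either genotype, nor in the measured genes of the AhR battery. In KO mice 0 of 15 probe sets were called and 1 had an unadjusted p under 0.05, and in WT mice 0 were called and 1 had one (limma, BH; smallest adjusted p of 0.9997 in KO and 0.997 in WT). Over all probe sets 0% were called in either genotype, and 1.69% in KO and 2.79% in WT had an unadjusted p under 0.05. The median over the members was −0.10 in KO and 0.07 in WT, against 0.03 in KO and 0.02 in WT over all probe sets. With 2 arrays a group the intervals are wide.

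In KO mice the brighter Keap1 probe set was higher after TCDD by 0.65 (SE 0.13, 95% confidence interval 0.33 to 0.97; unadjusted p = 0.0022, and limma, BH adjusted p = 0.9997), the member with the smallest p. Both KO TCDD arrays, at 8.71 and 8.52, lay above both KO DMSO arrays, at 8.04 and 7.89. Its second probe set read 0.18 higher and did not pass. In WT the brighter probe set read −0.25 (SE 0.13), with the WT TCDD arrays at 8.16 and 8.14 and the WT DMSO arrays at 8.51 and 8.28. The KO response minus the WT response was 0.90 (SE 0.19; unadjusted p = 0.0025, and limma, BH adjusted p = 0.998), and over the members 1 of 15 such differences had an unadjusted p under 0.05, where 2.78% of all probe sets had one and 0% were called. In 2 of the 15, this one and Hmox1, TCDD and DMSO arrays separated in both genotypes in opposite directions, as they did in 3.79% of all probe sets.

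In WT mice the member with the smallest p was the dimmer Gclc probe set, at 6.73 and 6.62 on the TCDD arrays and 6.97 and 7.30 on the DMSO arrays. The difference was −0.46 (SE 0.14; unadjusted p = 0.0161, and limma, BH adjusted p = 0.997), and in KO it was −0.03 (SE 0.14). The other Gclc probe set read −0.33 in KO and −0.18 in WT. Gstp1 read 0.10 (95% confidence interval −0.18 to 0.38) in KO and −0.06 (−0.33 to 0.22) in WT after TCDD, so a rise larger than 0.38 lies outside both intervals. Hmox1 read −0.30 in KO and 0.21 in WT, Gclm −0.09 in KO and 0.01 in WT, and the 3 Txnrd1 probe sets −0.16 to 0.06 in KO and 0.15 to 0.32 in WT. Among the 6 pathway lists 0 probe sets were called after TCDD in either genotype, and the further NRF2 targets had a median of 0.06 in KO and 0.01 in WT. In the brightest probe set of each AhR battery gene, WT read 0.13 for Cyp1a1, 0.14 for Cyp1b1 and 0.14 for Aldh3a1 after TCDD. Ahrr read 0.425 and Tiparp 0.03. The list's median was 0.135 in WT and 0.065 in KO. All but Tiparp lie below the median probe set level. The arrays thus hold no called response of an AhR target to set the members beside.

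**Figure D5:**
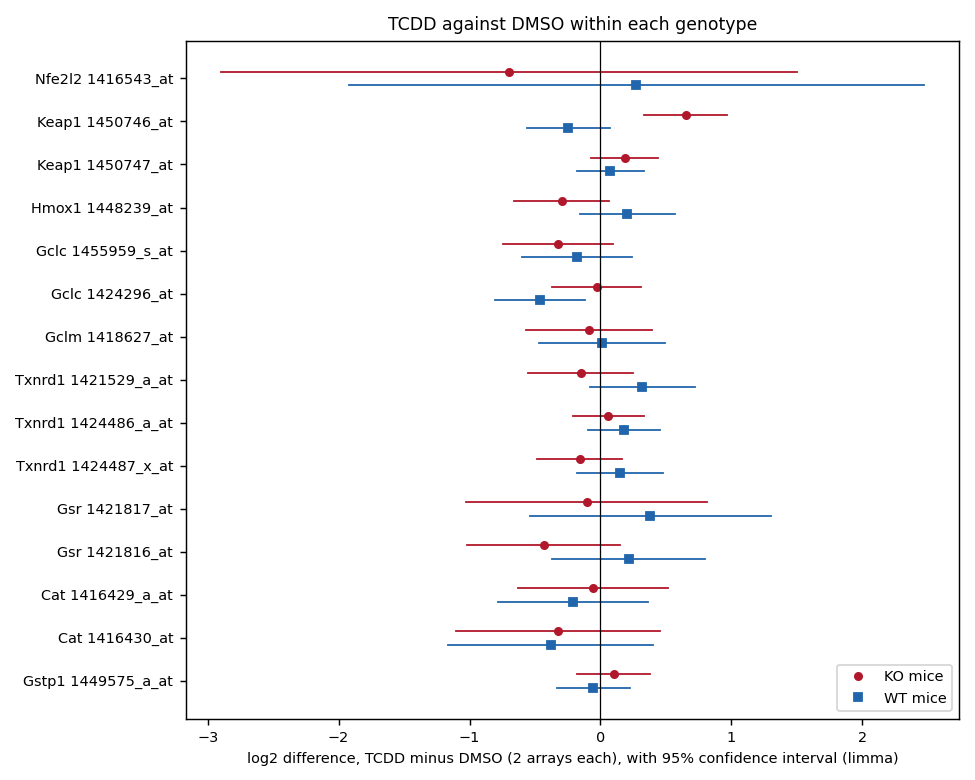
Log2 difference TCDD minus DMSO (x axis) for the 15 probe sets in KO (red circles) and WT (blue squares), with 95% confidence intervals from limma over 2 arrays each. No probe set passed after adjustment; the brighter Keap1 probe set is higher in KO at 0.65 and reads −0.25 in WT.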

How the data were processed

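The deposited values are log2 expression per probe set, made by the authors with RMA and affy according to the labels (per the submitters' processing notes); versions and the genome build are not given in the sources used here. Per the labels' protocols, TRIzol RNA was amplified with the Ambion kit and processed by the Affymetrix standard protocol. From 22690 rows, 64 Affymetrix controls were left out and 22626 probe sets tested; 20380 have 1 symbol, 691 several and 1555 none. The 15 member probe sets were all matched to RefSeq (GRCm38.p6) by Entrez identifier.

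Fits used limma 3.58.1 in R 4.3.3 (lmFit, eBayes) with BH adjustment over all probe sets. KO was compared with WT as 4 against 4 arrays, following the series' design text. TCDD effects and the interaction came from a model of 4 group means. Per the labels, each group's 2 arrays are biological duplicates. The p-values of the TCDD effects and the interaction measure the spread between duplicate pools. Those of KO against WT measure the spread among the 4 pools of a genotype, TCDD and DMSO together. At most 2.85% of values were identical in any 2 arrays, and same-group arrays correlated at 0.967 to 0.992. The fits were tested on simulated data.

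Every member is named. From each pathway list, genes with a called probe set are named, and for the called member the 3 genes with the highest correlation. Bach2, Cul3, Maff, Mafk, Taldo1, Nqo1 and Slc7a11, the TCDD readings of the AhR battery, and the pathway genes' alternatives, were picked with their values already known. Members, lists and tests were chosen with earlier results of these data known. List medians use the brightest probe set of each gene. Alternatives were a replicate block, other normalizations, filters, variance settings, weights, models and array subsets.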

Additional observations from a re-analysis of the deposited data

Results flagged for a closer look

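In 2 of the 15 probe sets the arrays separated in opposite directions after TCDD in the 2 genotypes, against 3.79% of all probe sets, and neither difference was called. For Keap1 (brighter probe set), both KO TCDD arrays (8.71 and 8.52) were above both KO DMSO arrays (8.04 and 7.89), and both WT TCDD arrays (8.16 and 8.14) were below both WT DMSO arrays (8.51 and 8.28), a difference of responses of 0.90 (limma, BH adjusted p = 0.998). For Hmox1, both KO TCDD arrays (6.77 and 6.81) were below both KO DMSO arrays (7.29 and 6.88), and both WT TCDD arrays (6.75 and 6.71) were above both WT DMSO arrays (6.49 and 6.56), a difference of responses of −0.50 (SE 0.21; unadjusted p = 0.0539, and limma, BH adjusted p = 0.998).

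In 4 of 30 groups of 4 arrays, the farthest array stood apart by most of the group's range. For 4 independent values of a normal distribution, chance gives this in about 1 of 20 groups. The groups here mix TCDD and DMSO arrays and share arrays between probe sets, so that rate is a rough guide. The share over all probe sets was not computed, so no excess in the members can be read from this count. WT TCDD 2 was low for Cat (brighter probe set) at 9.09 (gap over range 0.929), and WT DMSO 2 was high for Cat (dimmer probe set) at 7.81 (0.880). KO DMSO 2 was high for Gsr (dimmer probe set) at 6.82 (0.852) and for Txnrd1 (dimmest probe set) at 4.90 (0.853).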

How the results depend on the processing

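Of the member probe sets, 1 was called between KO and WT, and the same with the replicate block (Gstp1, limma, BH adjusted p = 0.0495), after median centring, with the actin covariate and with the mean of all probe sets per gene. There were 2 with array weights (Gstp1 and Gclc). There were 0 after quantile normalization, with dim probe sets left out, with trend and robust eBayes, without both WT arrays numbered 2, in the model of 4 group means, with treatment as an additive term and with DMSO or TCDD arrays only, and 0 to 1 on leaving out an array. The count over all probe sets, 631, ran from 0 (DMSO or TCDD arrays only) to 1834 (actin covariate), and was 28 without both WT arrays numbered 2 and 109 to 667 on leaving out an array. For TCDD in KO, TCDD in WT and the interaction, 0 members were called in each of 14 alternatives. The replicate number went with a shared deviation in WT, where deviations of same-numbered arrays correlated at 0.63 between TCDD and DMSO. Between the other pairs of groups they correlated at −0.29 to 0.22. The block ended the Txn2 call (limma, BH adjusted p = 0.0509, and 0.0255 to 0.241 over its alternatives).

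Differences that were not called changed sign with array weights in Gclm (−0.046), Txnrd1 (dimmest probe set) (−0.029) and Gsr (dimmer probe set) (−0.065), and without both WT arrays numbered 2 in Nfe2l2 (0.12), Keap1 (brighter probe set) (−0.045) and Gsr (brighter probe set) (0.093). On leaving out an array they ran from −0.12 to 0.15 for Keap1 (brighter probe set), −0.10 to 0.10 for Gclm, −0.033 to 0.14 for Txnrd1 (brightest probe set), −0.068 to 0.062 for Txnrd1 (dimmest probe set) and −0.11 to 0.18 for Gsr (dimmer probe set). The causes were not tested. 2 of the 3 Txnrd1 probe sets have no value where dim ones are left out. Other uncalled differences kept their sign but ran from 0.038 to 0.13 for Keap1 (dimmer probe set) and from 0.015 to 0.12 for Txnrd1 (middle probe set). Levels below the median of all probe sets limit these 2 dimmer Txnrd1 probe sets, Nqo1 and Slc7a11. The same holds for Ube2c, the dimmer Bach1 probe set, the dimmer Cul3 probe sets, and Cyp1a1, Cyp1b1, Ahrr and Aldh3a1. No detection level was measured.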

Other observations

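The genes whose probe sets followed Nfe2l2 most closely over the 8 arrays, singled out after its values were seen, were Rbbp7, a histone-binding protein (Pearson r = 0.987), Zkscan3, a zinc finger repressor (r = 0.986), and Tmco1, a membrane protein (r = 0.984). Each averaged lower in KO and had a wider spread in WT than in KO, as Nfe2l2 did: Rbbp7 averaged 9.57 ± 0.32 in KO and 10.18 ± 0.72 in WT (n = 4 each, SD). None of the 3 passed between KO and WT (limma, BH adjusted p = 0.357 to 0.459). The correlations describe 8 arrays that share their normalization and carry no test.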
